A study of Mus musculus with 7 samples.

Results

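Messenger RNA of 8 chemokine receptor genes was measured in dendritic cells sorted from mouse spleen. The 8 genes are Cxcr6, Ccr7, Cxcr3, Cxcr4, Ccr2, Ccr6, Ccr9 and Cx3cr1, taken by symbol from the 19505 named genes of the deposited array table. Each of the 8 symbols had 1 probe set, and all 8 were measured, on every one of 7 arrays. The genes were chosen by earlier readings of their KO and WT log2 signals on these same arrays, with Cxcr6 and Ccr7 in the lead. Their KO and WT values are therefore given as a description, with no test.

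The cells were type 1 conventional dendritic cells (cDC1), the subset that cross-presents antigen to CD8 T cells. All mice were of the C57BL/6 strain and carried a B16-OVA tumor, a mouse melanoma line that expresses ovalbumin. The 4 KO arrays come from CD11c-Cre; OPA1 flox mice, in which Cre under CD11c control acts in every CD11c-expressing cell and not in cDC1 alone. The 3 WT arrays come from mice labelled only as WT, and the labels do not say whether these carried Cre or floxed alleles, nor give age, sex or pooling of animals. OPA1 drives fusion of inner membranes between mitochondria. Nothing in the labels says that the arrays of a group came from separate animals, so a p-value here covers array-to-array spread alone, and that spread may be technical.

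Chemokine receptors are G protein-coupled receptors that steer leukocytes along gradients of small secreted proteins. CCR7 takes maturing dendritic cells into lymphatics and toward the T cell zone. CXCR6 binds CXCL16, which dendritic cells can display on their surface, and is best known from activated T cells, NKT cells and NK cells. CCR9 marks gut-homing lymphocytes and many plasmacytoid dendritic cells, CCR2 brings monocytes out of the bone marrow, and CX3CR1 marks monocytes and macrophages. The measurement is of RNA in sorted bulk cells, where fewer cells of a type and less RNA per cell cannot be told apart.

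Values are log2 signals after RMA, the authors' array normalization, and a difference of 1 is a doubling of signal. The number of arrays limits the precision. Signals of different probe sets are not set against each other, because probes differ in how brightly they bind. Each gene was instead placed among the 5222 negative control probe sets of the same array. Their median was 6.88, 6.49, 6.67 and 6.88 on KO 1 to 4, and 6.19, 6.26 and 6.71 on WT 1 to 3. The control medians thus averaged 6.73 in KO and 6.39 in WT, with the lowest readings on WT 1 and WT 2.

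WT 1 and WT 2 stood apart from the other 5 arrays across all genes, with correlations to them of 0.924 to 0.954, against 0.988 to 0.993 among those 5. Opa1 itself read 7.70, 7.10, 6.85 and 8.24 on KO 1 to 4 and 8.14, 8.80 and 9.15 on WT 1 to 3, so KO 4 lay above WT 1 and the groups overlapped; whether its probes lie in the deleted part was not analysed here. Over a list of 13 cDC1 markers the mean log2 signal was 11.73 to 11.82 on the KO arrays and 10.96, 9.26 and 11.69 on WT 1 to 3. Over 12 melanocyte genes it was 7.15 to 7.97 on the KO arrays and 11.28, 11.58 and 9.02 on WT 1 to 3. The labelled cell type was thus borne out by its markers on KO 1 to 4 and WT 3, less on WT 1, and least on WT 2, where Xcr1 read 7.97 and Clec9a 7.29. The part of these marker lists in the receptor values was not tested. In limma, with Benjamini-Hochberg adjustment, 0% of the 19505 genes passed an adjusted p of 0.05 between KO and WT (smallest adjusted p = 0.223), and 3820 had an unadjusted p under 0.05. Without WT 3 limma called 4931 genes, and without WT 1 and WT 2 together 0, with 1154 at an unadjusted p under 0.05. The differences of the 8 receptors are therefore also given against WT 3 alone, and those of other genes and lists only in part.

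**Figure D1:**
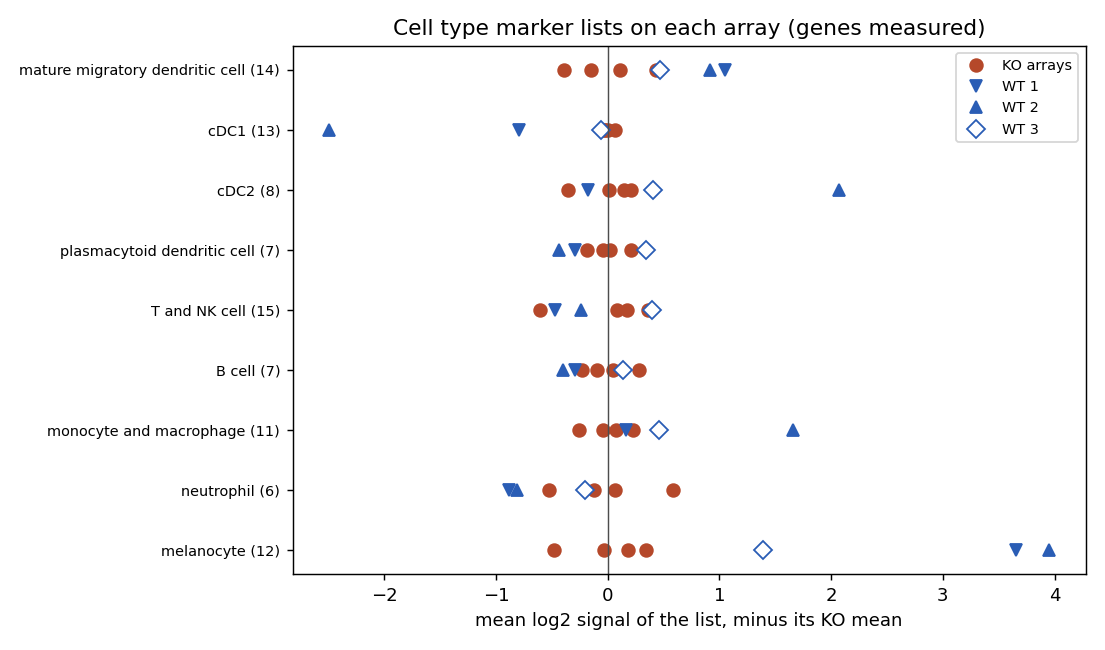
Mean log2 signal of 9 cell type marker lists on each array, minus the mean of the 4 KO arrays for that list, with KO arrays as circles and each WT array as its own symbol; the number of measured genes is in brackets. The melanocyte list stands 3.65 and 3.95 above the KO mean on WT 1 and WT 2 and 1.39 above it on WT 3.

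Of the 8 receptors, Cxcr6 was the one that read higher on all 4 KO arrays than on all 3 WT arrays. Its log2 signal was 7.99, 7.58, 7.84 and 7.67 on KO 1 to 4, and 6.46, 6.78 and 6.98 on WT 1 to 3. The groups did not overlap: the lowest KO array lay 0.61 above the highest WT array, which was WT 3. The mean was 7.77 ± 0.18 (SD, n = 4) in KO and 6.74 ± 0.26 (SD, n = 3) in WT, a difference of 1.03 with a standard error of 0.16. No fold is given, since the WT readings lay among the negative controls. Among all genes, 7.85% had every KO value above every WT value. Against WT 3 alone the KO mean was 0.79 higher, and all KO values lay above WT 3, as they did in 24.2% of all genes.

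Cxcr6 was a dim signal on every array. On the KO arrays between 64.1% and 71.5% of the negative control probe sets read lower than Cxcr6, and on the WT arrays between 55.3% and 60.8% did. On none of the 7 arrays did it exceed the upper quartile of those controls. When each array was set relative to its own control median, Cxcr6 stood 1.11, 1.09, 1.17 and 0.79 above it on KO 1 to 4, and 0.26, 0.51 and 0.27 above it on WT 1 to 3. The difference was then 0.69 with a standard error of 0.20, and the groups still did not overlap, which on this scale held in the same direction for 55 genes, or 0.282%. As Cxcr6 was picked for this contrast, these shares are background for reading its values and not evidence.

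Markers of T and NK cells, in which CXCR6 is best known, were read beside it. The list of 15 measured T and NK cell markers averaged 8.20, 7.42, 8.12 and 8.39 on KO 1 to 4, and 7.56, 7.80 and 8.42 on WT 1 to 3. WT 3 was the highest array for that list and lay below every KO array for Cxcr6. Single markers differed: Klrb1c, the NK1.1 gene of NK cells, read 8.49, 6.92, 9.04 and 8.67 on KO 1 to 4 and 5.61, 5.61 and 8.37 on WT 1 to 3, lowest on WT 1 and WT 2 and next lowest on KO 2. The part of T and NK cells in the Cxcr6 values was not tested. None of the 15 markers was below the control median on all arrays of a group. On single arrays some were, such as Klrb1c on WT 1 and WT 2. Ncr1, another gene of the list, was below it on WT 1, WT 2 and KO 2. In limma 0 of the 15 passed an adjusted p of 0.05 (smallest adjusted p = 0.258), with 0 at an unadjusted p under 0.05.

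Cxcr6 lies in a group of chemokine receptor genes on mouse chromosome 9, where the RefSeq annotation of GRCm38.p6 places it within the span of Fyco1, an adaptor gene of autophagosome transport, with Ccr9 on one side and Xcr1 on the other. Of the 8 receptors, 4 (Cxcr6, Ccr2, Ccr9 and Cx3cr1) are on chromosome 9. The sequences upstream of Cxcr6 and Ccr9 are shown because these neighbours gave the 2 highest positive differences of the 8 and yet differed in how WT 3 read. Each is the 250 bases before the annotated start on the plus strand, from RefSeq, build GRCm38.p6, in lower case 5′ to 3′, with matches to the RUNX motif in capitals.
Cxcr6, chr9:123806227-123806476: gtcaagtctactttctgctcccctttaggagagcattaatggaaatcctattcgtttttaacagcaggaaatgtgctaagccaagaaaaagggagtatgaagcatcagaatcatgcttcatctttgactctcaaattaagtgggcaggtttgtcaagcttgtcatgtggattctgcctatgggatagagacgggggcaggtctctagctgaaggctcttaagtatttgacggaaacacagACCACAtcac
Ccr9, chr9:123766961-123767210: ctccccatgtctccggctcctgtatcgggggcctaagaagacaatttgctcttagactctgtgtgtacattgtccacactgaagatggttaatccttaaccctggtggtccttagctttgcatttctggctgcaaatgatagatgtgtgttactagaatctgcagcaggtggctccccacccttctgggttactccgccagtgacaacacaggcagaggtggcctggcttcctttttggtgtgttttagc

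Of the 8 receptors, 7 matched the promoter table, with 8 windows in all. Each was searched on both strands for TGTGGT (the RUNX core) and TGANTCA (AP-1). The RUNX letters were found in 3 of the 8 windows (Cxcr6, Cxcr3 and Cx3cr1) and in 14% of all 32851 promoter windows of that length. The Cxcr6 match is on the minus strand, with 4 bases between it and the start, and the Ccr9 window holds none. The AP-1 letters were in 0 of the 8 windows and in 6.75% of all windows, so no RUNX match overlapped one. These are matches of letters and say nothing of binding.

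Fyco1 and Xcr1, the genes at and beside Cxcr6, did not show its pattern. Fyco1 read 8.42, 8.18, 8.35 and 8.39 on KO 1 to 4 and 8.08, 7.45 and 8.70 on WT 1 to 3. WT 3 was the highest array for Fyco1, above every KO array, where for Cxcr6 it lay below them all. Xcr1, the receptor that defines cDC1 and binds XCL1, read 12.70 to 12.79 on the KO arrays and 12.12, 7.97 and 12.76 on WT 1 to 3, so only WT 1 and WT 2 were below the KO arrays. Farther out, Slc6a20b, a transporter gene, and Ccr1l1, a receptor-like gene, did read higher on all KO arrays than on all WT arrays, with differences of 0.52 and 0.37.

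**Figure D2:**
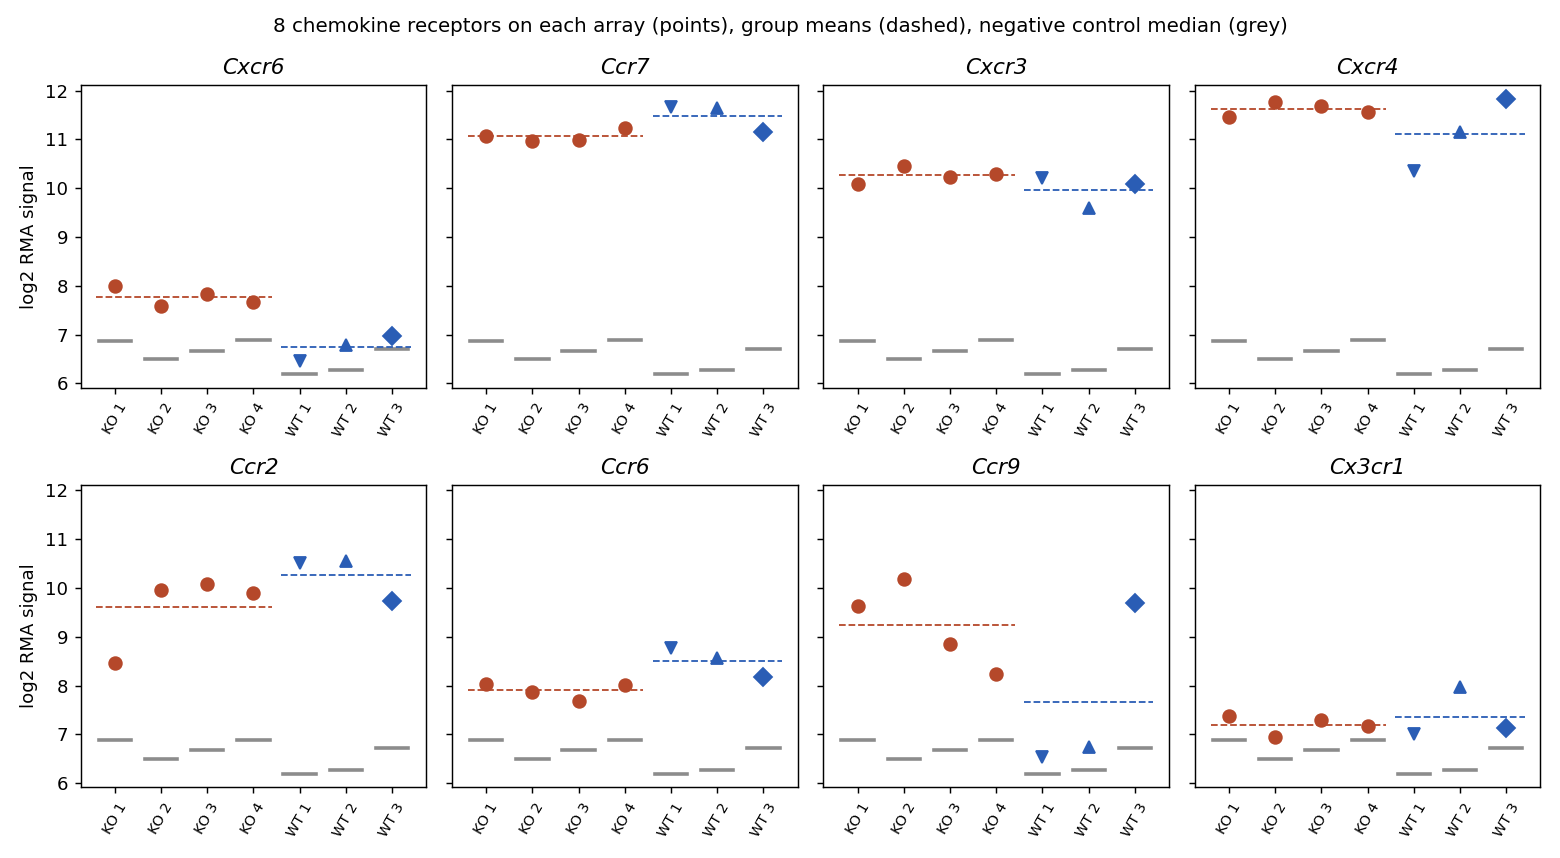
Log2 RMA signal (vertical axes) of the 8 receptors on KO 1 to 4 (circles) and WT 1 to 3 (down triangle, up triangle, diamond), with dashed group means and, as grey bars, the median of the negative control probe sets of each array. Cxcr6 is the panel in which every KO point lies above every WT point, and Ccr9 the one in which WT 3, at 9.70, lies with the KO arrays while WT 1 and WT 2, at 6.54 and 6.74, lie near the controls.

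Ccr9 had the widest spread of the 8. This receptor for CCL25 read 9.64, 10.19, 8.85 and 8.24 on KO 1 to 4 and 6.54, 6.74 and 9.70 on WT 1 to 3. WT 3 lay within the KO range, and WT 1 and WT 2 lay well below it. The mean was 9.23 ± 0.86 (SD, n = 4) in KO and 7.66 ± 1.76 (SD, n = 3) in WT, a difference of 1.57 with a standard error of 0.79, but against WT 3 alone the difference was -0.46. Cd8a, a marker of resident splenic cDC1, split the arrays in the same way, at 11.95 to 12.12 in KO and 7.89, 6.96 and 12.11 on WT 1 to 3. Clec9a did so too, at 12.03 to 12.11 in KO and 10.46, 7.29 and 12.10 on WT 1 to 3. Not every cDC1 marker did. Itgae on WT 1, at 11.45, lay within its KO range of 11.03 to 11.66. Cd24a on WT 1, at 9.54, lay above its KO range of 9.23 to 9.45. Among the KO arrays Ccr9 spanned 1.95 log2 units, while Cd8a spanned 0.17.

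Because CCR9 is also carried by plasmacytoid dendritic cells, their markers were read beside it. Siglech, a surface lectin of those cells, read 8.45, 8.16, 8.57 and 9.14 on KO 1 to 4 and 7.75, 7.61 and 9.34 on WT 1 to 3. Siglech, like Ccr9, was lowest on WT 1 and WT 2, while KO 2 had the highest Ccr9 and the lowest Siglech of the KO arrays. Bst2, the gene of this list with the lowest unadjusted p and one that interferon induces in many cells, went the other way on those WT arrays: it read 11.26 to 11.73 in KO and 12.65, 12.64 and 11.72 on WT 1 to 3. Tcf4, the transcription factor of plasmacytoid dendritic cells, read 10.99 to 11.19 in KO and 10.93, 11.48 and 11.10 on WT 1 to 3, so the markers did not share 1 order. The 7 measured markers of that list averaged 9.49 to 9.88 on the KO arrays and 9.38, 9.23 and 10.02 on WT 1 to 3. Their part in the Ccr9 values was not tested.

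Ccr7, the receptor for CCL19 and CCL21, had a lower mean in KO. It read 11.08, 10.97, 10.99 and 11.23 on KO 1 to 4 and 11.66, 11.64 and 11.16 on WT 1 to 3. WT 3 lay below KO 4 and so inside the KO range, while WT 1 and WT 2 were above all KO arrays. The mean was 11.07 ± 0.12 (SD, n = 4) in KO and 11.48 ± 0.28 (SD, n = 3) in WT, a difference of -0.42 with a standard error of 0.15, and of -0.091 against WT 3 alone. Ccr7 was far above background on every array, with at least 97.9% of the negative controls below it on each KO array and at least 98.3% on each WT array.

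Ccr7 was read beside genes of mature migratory dendritic cells, of which 14 of a list of 16 were measured. The mean of those 14 was 10.17, 9.67, 9.91 and 10.49 on KO 1 to 4 and 11.11, 10.97 and 10.53 on WT 1 to 3. From the highest array to the lowest, the list and Ccr7 gave the same order except that WT 3 and KO 4 changed places. In limma 0 of the 14 passed an adjusted p of 0.05, and at an unadjusted p under 0.05 there were 10 lower and 0 higher in KO, against 10.6% lower and 8.98% higher among all genes. Fscn1, an actin-bundling protein of mature dendritic cells, read 9.90, 9.01, 10.16 and 11.16 on KO 1 to 4. On WT 1 to 3 it read 12.80, 12.56 and 11.11, so that KO 4 again lay just above WT 3. In 5 of the 14, however, all KO values lay below all WT values, WT 3 included, where 5.92% of all genes lay so. Tmem123 was one of these, at 11.27 to 11.77 in KO and 12.61, 12.53 and 11.99 on WT 1 to 3. Cd83 and Traf1 were the 2 with a higher mean in KO, by 0.066 and 0.016. The median difference of the list was -0.69, and -0.46 against WT 3 alone, where all genes had 0.059 and 0.023. These genes were chosen with earlier results of the same arrays known.

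Ccr6, the receptor for CCL20, was the one receptor of the 8 that read lower on all KO arrays than on all WT arrays, as did 5.92% of all genes. Its log2 signal was 8.03, 7.87, 7.68 and 8.02 on KO 1 to 4 and 8.78, 8.57 and 8.17 on WT 1 to 3. The gap between the groups was 0.14, between WT 3 and KO 1. The difference was -0.61 with a standard error of 0.16, and -0.27 against WT 3 alone, where all KO values lay below WT 3 in 18.1% of all genes. On the KO arrays Ccr6 lay above 68.7% to 75.1% of the negative controls, a range that overlaps that of Cxcr6 (64.1% to 71.5%). On the WT arrays it lay above 76.2% to 90.7% of them. Ccr6 exceeded the upper quartile of the controls on 4 of the 7 arrays. Setting each array relative to its control median lowers the difference of every gene by 0.34. On that scale the Ccr6 difference was -0.95 and all KO values lay below all WT values, as in 7.82% of all genes. For B cells, which carry CCR6, the 7 measured markers averaged 7.64 to 8.14 on the KO arrays and 7.57, 7.46 and 8.0 on WT 1 to 3, so WT 1 and WT 2 were the lowest for that list and the highest for Ccr6. The part of B cells in the Ccr6 values was not tested.

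Ccr2, the receptor for CCL2, had 1 KO array far below the others. It read 8.46, 9.96, 10.09 and 9.90 on KO 1 to 4 and 10.51, 10.55 and 9.73 on WT 1 to 3. KO 1 lay 1.44 below the next KO array, and the other KO arrays were all above WT 3 and below WT 1 and WT 2. The mean was 9.60 ± 0.77 (SD, n = 4) in KO and 10.26 ± 0.46 (SD, n = 3) in WT, a difference of -0.66 with a standard error of 0.41. Without KO 1 the difference was -0.28, and with all 4 KO arrays against WT 3 alone it was -0.13. The 11 measured monocyte and macrophage markers did not single out KO 1, with means of 8.76, 8.43, 8.90 and 8.64 on KO 1 to 4 and 8.84, 10.34 and 9.14 on WT 1 to 3.

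**Figure D3:**
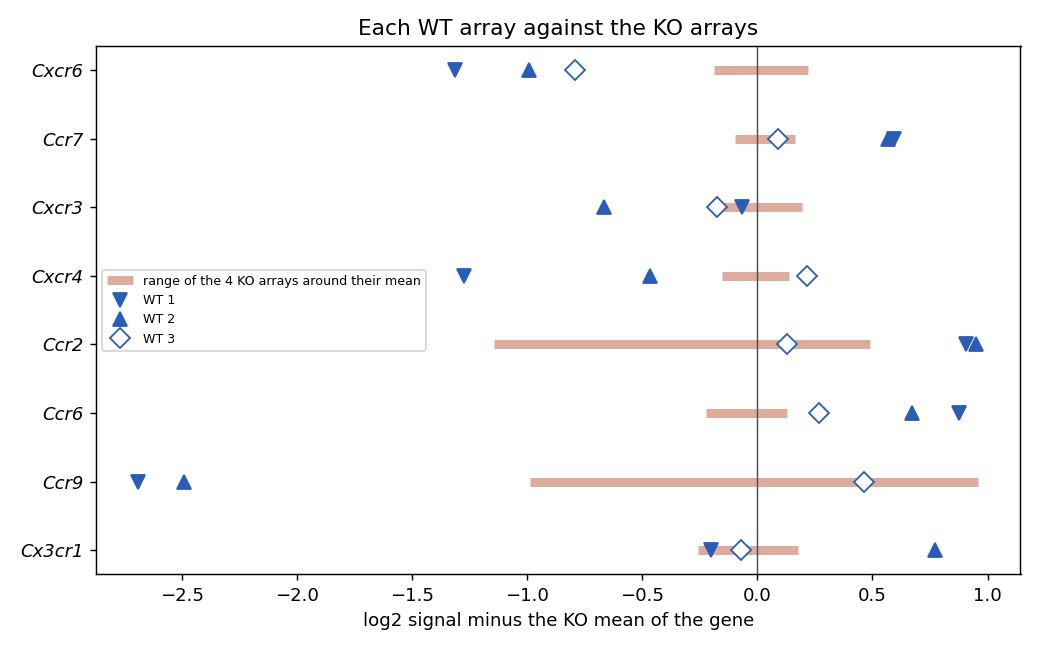
Log2 signal of each WT array minus the KO mean of the gene (horizontal axis) for the 8 receptors, with a bar for the range of the 4 KO arrays around their mean and symbols for WT 1, WT 2 and WT 3. All 3 WT symbols lie left of the KO bar for Cxcr6 and right of it for Ccr6; for Ccr7, Ccr2 and Ccr9 WT 3 lies on the bar and WT 1 and WT 2 lie off it.

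Cxcr3, the receptor for CXCL9, CXCL10 and CXCL11, had groups that overlapped. It read 10.09, 10.46, 10.23 and 10.29 on KO 1 to 4 and 10.20, 9.60 and 10.09 on WT 1 to 3. WT 2 was the lowest array, WT 1 lay within the KO range, and WT 3 equalled KO 1 to 2 decimals. The difference was 0.30 with a standard error of 0.16, and without WT 2 it was 0.12. Relative to the control medians it was -0.039, so its sign depended on the scale.

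Cxcr4, the receptor for CXCL12 that holds leukocytes in the bone marrow, was even across KO and uneven across WT. It read 11.47, 11.76, 11.69 and 11.56 on KO 1 to 4 and 10.35, 11.15 and 11.84 on WT 1 to 3. WT 3 was the highest of the 7 arrays and WT 1 the lowest, so the WT values lay on both sides of the KO range. The difference was 0.51 with a standard error of 0.30, and -0.22 against WT 3 alone.

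Cx3cr1, the receptor for the membrane-bound chemokine CX3CL1, was also a dim signal. It read 7.37, 6.94, 7.30 and 7.17 on KO 1 to 4 and 7.0, 7.97 and 7.12 on WT 1 to 3. WT 2 was the one array above the rest, and it was also the highest array for the monocyte and macrophage list, at 10.34. The list of 8 markers of type 2 conventional dendritic cells (cDC2) was highest on WT 2 as well. It averaged 10.41 there and 7.99 to 8.75 on the other arrays. The part of either list in the Cx3cr1 values was not tested. Only on WT 2 did Cx3cr1 exceed the upper quartile of the negative controls. The difference was -0.17 with a standard error of 0.24, and without WT 2 it was 0.14.

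Counted together, 4 of the 8 receptors had a higher mean in KO and 4 a lower one, where 59.9% of all genes were higher and 40.1% lower. Their median difference was 0.068, and -0.11 against WT 3 alone, beside medians over all genes of 0.059 and 0.023. Against WT 3 alone, Cxcr6 differed by 0.79 and Ccr9 by -0.46, and the other 6 receptors by -0.27 (Ccr6) to 0.17 (Cxcr3).

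The rest of the receptor family was read from a list of 10 other signalling receptors, of which 9 were measured, and 5 atypical receptors, which take up chemokines without G protein signalling. In limma 0 of these 14 genes passed an adjusted p of 0.05 in either direction (smallest adjusted p = 0.254). At an unadjusted p under 0.05 there was 1, Ackr2, a scavenger of inflammatory CC chemokines, higher in KO, and 0 lower, against 8.98% and 10.6% of all genes. Ackr2 read 7.86, 8.06, 7.94 and 7.96 on KO 1 to 4 and 7.51, 7.38 and 7.95 on WT 1 to 3, so WT 3 lay within the KO range. In 0 of the 14 did the groups fail to overlap, where 7.85% of all genes had all KO values above and 5.92% all KO values below.

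Among the 9 other signalling receptors, differences ran from -0.66 for Ccr1 to 1.79 for Xcr1, with 6 higher in KO and 3 lower. Ccr1, a receptor for CCL3 and CCL5 on myeloid cells, read 6.39 to 6.76 on the KO arrays and 6.49, 8.76 and 6.47 on WT 1 to 3. Its difference thus rested on WT 2 alone, as did most of that of Xcr1. Cxcr2, a receptor of neutrophils, differed by 0.41 and Cxcr5, the receptor for CXCL13 that leads cells into B cell follicles, by -0.46; in both, WT 3 lay within the KO range. Cxcr1, the other neutrophil receptor, differed by 0.25. Ccr3, known from eosinophils, differed by 0.24, with readings of 5.96 to 7.18 in KO and 5.50, 5.67 and 8.01 on WT 1 to 3. Ccr10, the receptor for CCL27 and CCL28, differed by 0.20, Ccr4, a receptor for CCL17 and CCL22, by 0.15, and Ccr8, known from regulatory T cells, by -0.091. The 4 atypical receptors beside Ackr2 differed by 0.062 for Ackr3 to 0.26 for Ackr1.

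Of the ligands, CXCL16 is the one for CXCR6. Cxcl16 read 12.80, 12.53, 12.61 and 12.89 on KO 1 to 4 and 12.95, 12.73 and 12.96 on WT 1 to 3. WT 2 lay within the KO range and the difference was -0.17, small beside that of its receptor and of the other sign.

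Among the ligands measured, Cxcl10 and Cxcl11, both ligands of CXCR3, were the ones whose groups did not overlap. These are 2 of 15, all KO below all WT, where 5.92% of all genes lay so, and with 2 genes nothing is read from the count. Cxcl11 read 6.59, 6.47, 6.28 and 6.87 on KO 1 to 4 and 7.30, 7.76 and 7.22 on WT 1 to 3, a difference of -0.88 with a standard error of 0.18. Cxcl10 read 8.73, 8.20, 8.09 and 8.92 on KO 1 to 4 and 8.98, 10.04 and 9.18 on WT 1 to 3, a difference of -0.92 with a standard error of 0.30. For both genes all KO arrays lay below all WT arrays, and against WT 3 alone the differences were -0.67 and -0.69. Neither passed correction over all genes (limma, adjusted p = 0.223 for each). Cxcl9, the third of these interferon-induced ligands, did not follow: it read 12.03, 11.37, 11.56 and 12.19 on KO 1 to 4 and 11.03, 10.95 and 12.20 on WT 1 to 3.

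Of all 15 ligands measured, 8 were higher and 7 lower in KO and 0 passed an adjusted p of 0.05. At an unadjusted p under 0.05 there were 2 lower, Cxcl10 and Cxcl11, and 0 higher, against 10.6% and 8.98% of all genes. Ccl2, a ligand of CCR2, read 9.08 to 9.34 on the KO arrays and 9.29, 10.36 and 9.56 on WT 1 to 3, a difference of -0.54 to which WT 2 gave most. Ccl21a, a ligand of CCR7, differed by 0.21; its near-identical copies Ccl21b and Ccl21c share sequence with it, so their probe sets may not tell them apart. The median difference of the 15 was 0.0003, beside 0.059 over all genes.

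**Figure D4:**
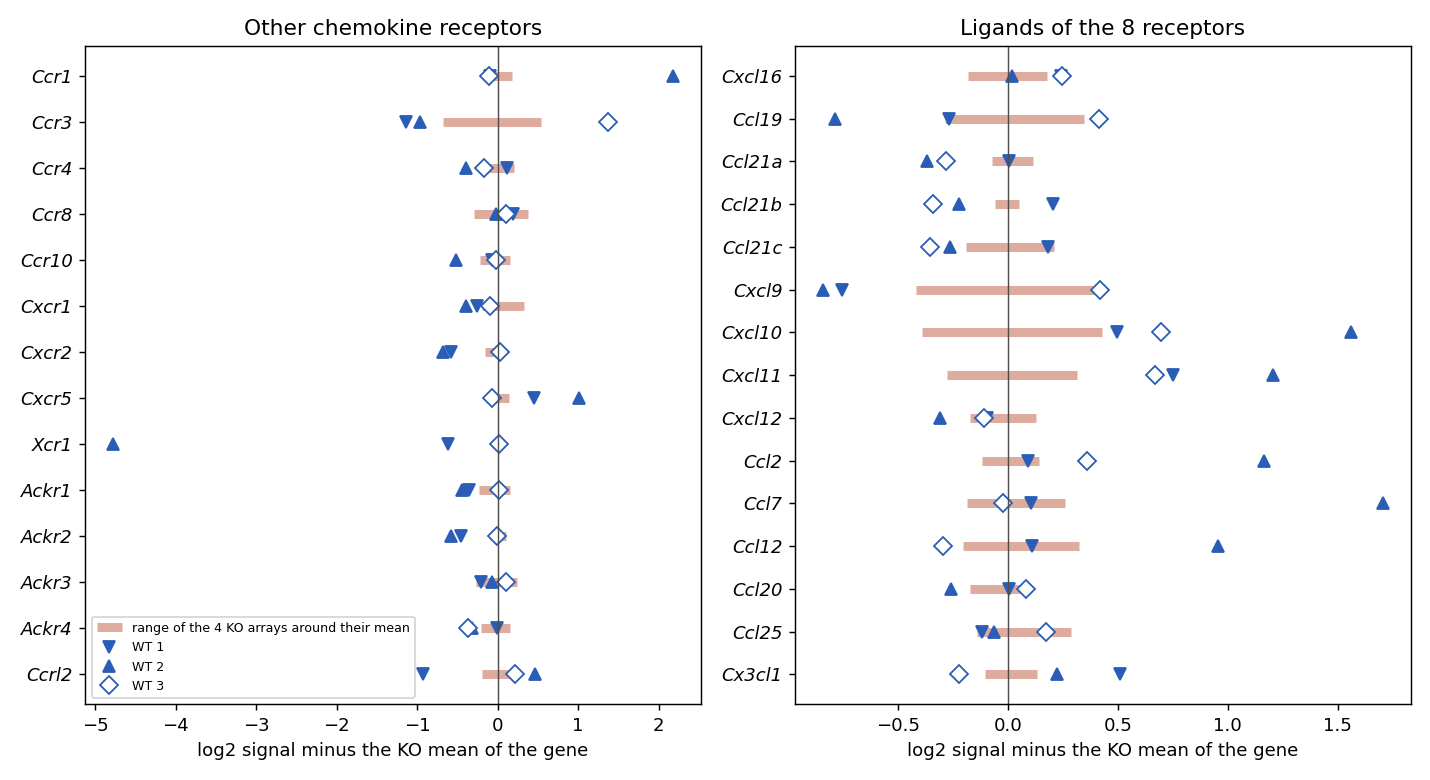
Log2 signal of each WT array minus the KO mean of the gene (horizontal axes) for 14 other chemokine receptors and for 15 ligands of the 8 receptors, with a bar for the range of the 4 KO arrays around their mean. WT 2 alone lies far from the bar for Xcr1 and Ccr1, and all 3 WT symbols lie right of the bar for Cxcl10 and Cxcl11.

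Downstream of the receptors, 25 of 27 listed genes of G protein signalling, receptor desensitisation and cell motility were measured. In limma 0 passed an adjusted p of 0.05 (smallest adjusted p = 0.223). At an unadjusted p under 0.05 there were 7 higher and 0 lower in KO, against 8.98% and 10.6% of all genes. Ric8a, a chaperone of G protein alpha subunits, read 9.44, 9.42, 9.29 and 9.38 on KO 1 to 4 and 9.12, 8.94 and 9.13 on WT 1 to 3, a difference of 0.32. Its groups did not overlap, and neither did those of Grk6, a kinase that desensitises receptors, which differed by 0.28. These 2 of 25 genes are a share near the 7.85% of all genes that had all KO values above all WT values. Plcb2, the phospholipase C of leukocytes, differed by 0.85, Grk3, another receptor kinase, by 0.52 and Rgs2, which shortens G protein signals, by 0.68. In those 3, WT 3 lay within the KO range. The median difference over the 25 genes was 0.26, and 0.033 against WT 3 alone, where all genes had 0.059 and 0.023.

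To see which genes ran most like the leading receptors, Pearson correlations over the 7 arrays were taken across the 15040 other genes above the mean control median. Closest to Cxcr6 were Taar7b, Adam15, Pex11g, Tmem86b and Col6a3, with r of 0.979 to 0.984. Closest to Ccr7 were Tnfrsf11b, Mndal, Pomk, Rtn3 and Zbtb17, with r of 0.989 to 0.997. Over the 5 arrays without WT 1 and WT 2 these 10 genes had r of 0.923 to 0.996. They were picked on the 7 arrays, which include these 5, so this is no separate check. The arrays share the separation of WT 1 and WT 2, and 7 points over so many genes give high values readily, so the lists are descriptions only.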

How the data were processed

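RNA of sorted splenic cDC1 was measured on 7 whole-transcript Affymetrix arrays, 4 KO and 3 WT, grouped by sample title. The authors deposited a table of 28846 probe sets. Per the submitters' processing notes, RMA and Affymetrix Expression Console 1.1 made the values, and their range shows a log2 scale; the set of arrays that entered the normalization is not stated. RMA can compress differences of dim genes, and its effect on the values here was not tested. Scanner files were not used here. The platform annotation names 1 gene for 19572 of 22206 transcript probe sets, several for 0 and none for 2634; per symbol the probe set with the highest mean was kept, leaving 19505 genes. All 19572 matched the RefSeq gene table by gene identifier.

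KO and WT were compared with limma 3.58.1 in R 4.3.3 (lmFit, eBayes, no covariate), Benjamini-Hochberg over all genes, tested on simulated data first. Differences are KO minus WT; standard errors come from that fit. Named from each list were up to 4 genes by unadjusted p, and every other signalling receptor. The neighbours of Cxcr6 and the 5 genes most like Cxcr6 and Ccr7 were also named. Cxcl16, Cxcl9, Clec9a, Itgae, Cd24a, Ncr1, Tcf4, Grk6, Slc6a20b, Ccr1l1, Cd83 and Traf1 were named after their values were seen. The members and lists were chosen with earlier results of these data known. Alternatives left out arrays, blocked on replicate number, rescaled, filtered, weighted or used other variance models.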

Additional observations from a re-analysis of the deposited data

Results flagged for a closer look

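Ccr2 on KO 1 read 8.46, where the other 3 KO arrays read 9.90 to 10.09, and this gap of 1.44 made up 0.885 of the range of the 4 arrays, above Dixon's 95% critical value for 4 samples. Values of 9 genes (the 8 receptors and Opa1) were examined over the 4 KO arrays, and 1 was flagged; chance flags about 1 in 20 groups. The 3 WT arrays are too few for this rule.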

How the results depend on the processing

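Cxcr6 stayed higher in KO and Ccr7, Ccr2 and Ccr6 stayed lower under all 15 alternatives tried for them. Some of these could not move a receptor. The floor at the control median and the use of every named probe set left each difference as it was. No receptor lay below that median, and each had 1 probe set. The replicate block gave the same differences as leaving out KO 4. The groups of Cxcr6 and Ccr6 did not overlap under any of the 5 scalings, which include the deposited values and that floor. Leaving out each array in turn gave differences of 0.89 to 1.15 for Cxcr6, -0.58 to -0.33 for Ccr7, 0.12 to 0.42 for Cxcr3, 0.13 to 0.87 for Cxcr4, -0.93 to -0.28 for Ccr2, -0.77 to -0.47 for Ccr6, 1.01 to 2.59 for Ccr9 and -0.35 to 0.14 for Cx3cr1. Without WT 1 and WT 2 together, where the spread of WT 3 is taken to equal that of KO, the differences were 0.79 for Cxcr6, -0.091 for Ccr7 and -0.27 for Ccr6, and the sign turned for Cxcr4 (-0.22), Ccr9 (-0.46) and Cx3cr1 (0.073). With the negative control median of each array subtracted, which lowers every difference by 0.34, they were 0.69 for Cxcr6, -0.76 for Ccr7 and -0.95 for Ccr6, and Cxcr3 turned to -0.039. With array weights Cx3cr1 was 0.0049.

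Genes called at an adjusted p of 0.05 numbered 0 in 16 of 18 alternatives, 4931 without WT 3 and 4458 with array weights, and 0 to 4931 over the arrays left out in turn. Genes at an unadjusted p under 0.05 numbered 3820 (45.9% higher in KO), 1616 (without WT 2) to 7189 (without WT 3) over the arrays left out, 1154 without WT 1 and WT 2, 2488 with the replicate block and 7038 with array weights; an ordinary linear model gave 2690, with 0 called. The share higher was 57.6% of 4283 after median centring and 4.07% of 4008 after subtraction of the control median. Genes whose groups did not overlap numbered 2687 (57% higher), 3289 to 8970 over the arrays left out, 8253 without WT 1 and WT 2, 1581 (3.48% higher) after that subtraction and 3172 (68.4% higher) after centring. The causes were not tested.

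The labels do not say that the replicate number pairs KO with WT arrays. Deviations of same-numbered KO and WT arrays from their group means correlated at -0.038, 0.046 and -0.017. For arrays of unlike number the values ran from -0.12 to 0.15. With WT 1 and WT 2 set apart from WT 3, this cannot show whether arrays were paired. With the replicate number as a block, Cxcr6 differed by 1.07 and Ccr7 by -0.47, and 0 genes were called. Signal over background limits Cxcr6 and Cx3cr1 most.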
